A study of Mus musculus with 4 samples.

Results

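The colony-stimulating factors and their receptors were followed in cultured resident peritoneal macrophages of the mouse, the phagocytes of the body cavity around the gut. The members were all non-control rows of the array named Csf1, Csf2, Csf3, Csf1r, Csf2ra, Csf2rb, Csf2rb2 or Csf3r. They came to 8 genes of 30165, with 15 probes of 39429 and 33 spots of 43020 on each array. The cells had a C57BL/6 background and were either wild type or CD163-deficient, which means that they lack a macrophage receptor for haemoglobin bound to haptoglobin. After 2 days in medium with serum they were left without treatment or were given 100 ng/mL of lipopolysaccharide (LPS), a cell wall component of bacteria, for 1 day. The 4 groups are called untreated wild type, LPS-treated wild type, untreated deficient and LPS-treated deficient, and values listed in the order of the groups follow this order. Each group was 1 sample of total RNA on 1 array, so no difference below has a replicate check or a p-value. How the CD163 deficiency was made, the age and number of the mice and any pooling are not given in the sources used here.

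Colony-stimulating factors are secreted proteins that keep myeloid cells alive, make them divide and set what they become. Csf1 encodes M-CSF, the survival factor of macrophages, whose receptor is the tyrosine kinase encoded by Csf1r. Csf2 encodes GM-CSF and Csf3 encodes G-CSF, and both act through cytokine receptors that signal by JAK kinases and STAT factors. The GM-CSF receptor joins a binding chain, from Csf2ra, with the common beta chain, from Csf2rb, which the receptors of IL-3 and IL-5 also use. Csf2rb2 is a mouse paralogue of that beta chain that works with the IL-3 receptor. Csf3r encodes the G-CSF receptor, best known from neutrophils and their precursors.

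The array reads each gene through probes of 60 bases, and a few of these sequences decide how the values can be read. The probes of the factors are shown by their first 30 bases, since the LPS and genotype results rest on them, and no letter is marked.
Csf1 probe: tgtggggcttacttagccttctggttacag
Csf2 probe: tctgaaaacgctgactcagcttggacagcg
Csf3 probe: gggggacaagacatccctgtttaatattta
The brightest Csf2rb and Csf2rb2 probes are shown over a stretch where they align, because these are the probes that stand for the paralogues, and the capitals mark the bases that differ.
Csf2rb probe: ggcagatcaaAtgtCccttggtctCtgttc
Csf2rb2 probe: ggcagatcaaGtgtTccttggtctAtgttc
Over the whole aligned stretch of 31 bases the pair had 28 identical bases (90.3%), while the second probe of each gene shared no more than 13 aligned bases with a probe of the paralogue. The only Csf3r probe is shown from its base 15 to 44, with capitals for bases that lie in a run of 16 or more bases found in probes of other genes, on either strand.
Csf3r probe: aaaaattaTGCTGGGTGTGGTGGTGCATGC
In all, 38 of the 60 bases of that probe, from base 23 to the end, lay in such runs, and 10 probes of other genes shared them. Only 1.53% of all probes had as many partners and 78.5% had none, while the other 14 member probes had between 0 and 2. The Csf2 probe is annotated over a span of only 28 bases (chr11:54060772-54060799 on mm9, the build of the array annotation).

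Levels are log2 values of the processed spot signal relative to the 75th percentile of the same array, so a level of 0 stands for that percentile. The percentile was an intensity of 910 to 1325 on the 4 arrays, 24711 to 26511 genes were detected on them, and no spot was saturated. Cd163, read by 1 probe, was dim on every array, at -5.47, -5.01, -6.00 and -5.48 in the order of the groups. It was 1.44-fold lower in deficient than in wild-type cells when untreated and 1.38-fold lower with LPS, and whether its probe lies in the altered part of the gene is not known here. All 10 macrophage markers with a probe, Csf1r among them, were detected on every array. Markers of other cells were detected too. Of the mesothelial and fibroblast list 10 of 10 were above background everywhere, and of the neutrophil list 7 of 8, all but Ngp. Spots of 1 probe on 1 array had a typical SD of 0.10 on the log2 scale, which gives 0.14 for a difference of single spots. This technical spread of single spots is set beside the differences below. For 10-spot probes it was taken from their own spots, and it is larger than the error of their means. The image software also gives each spot a signal error, with a preset part of 10% of the signal, which was not used in those comparisons.

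LPS left 6 of the 8 genes within 2-fold and went with higher signal of Csf3 and Csf2. In wild-type cells 2 of 8 members were at least 2-fold higher with LPS, beside 6.44% of the 26682 genes compared, and 0 were at least 2-fold lower, beside 5.09%. In deficient cells the counts were again 2 of 8 higher, beside 7.24% of 26152 genes, and 0 lower, beside 5.5%. The median LPS difference of the 8 members was 0.23 in wild type and 0.15 in deficient cells, and that of all genes was 0.01 and 0.03. The members compared in the 4 contrasts share arrays, so the counts are not independent of each other.

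**Figure D1:**
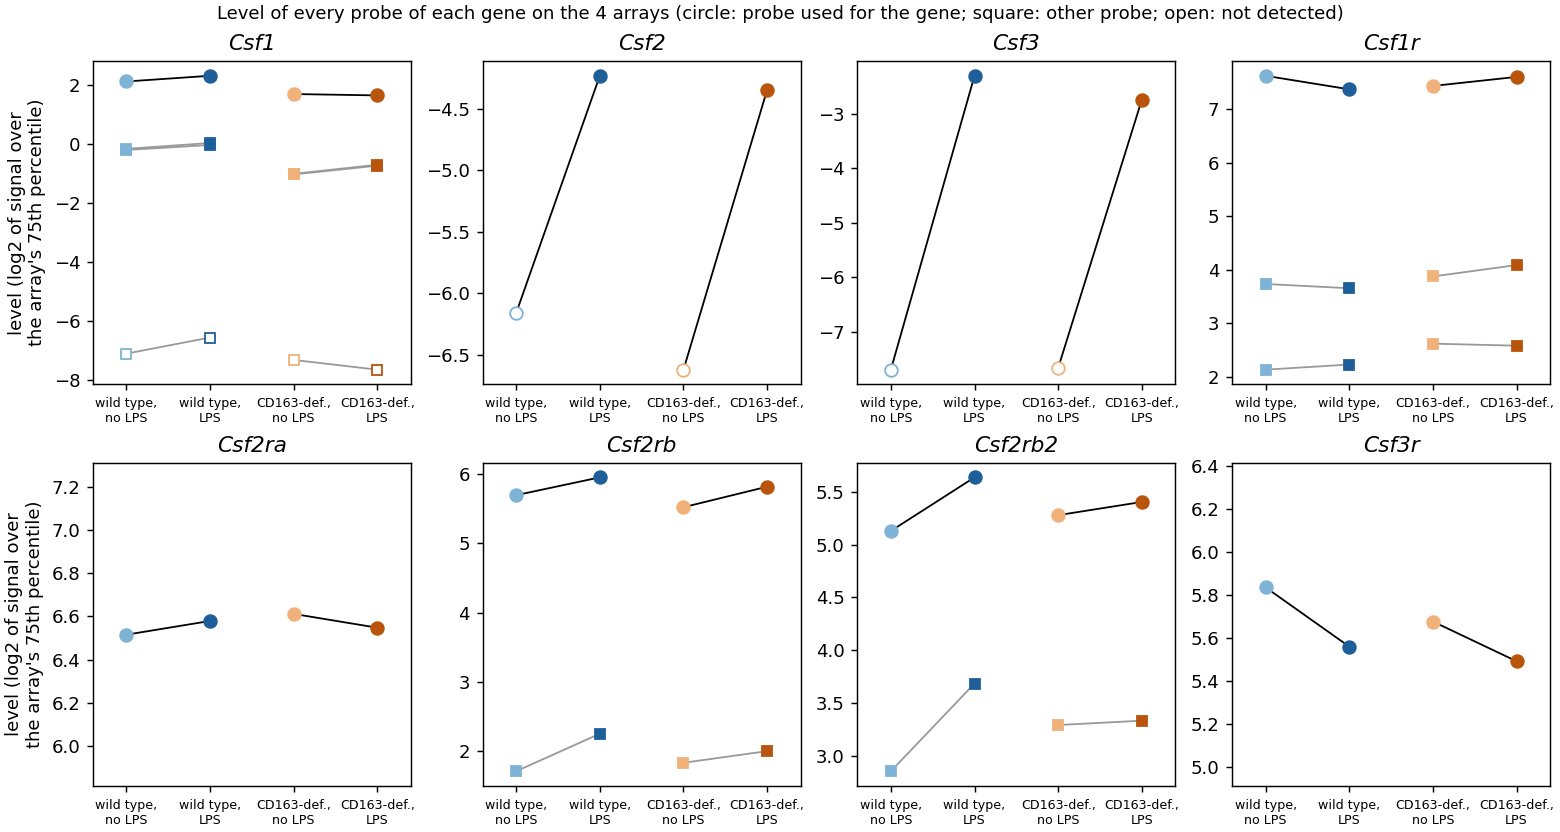
Level of each probe of the 8 genes on the 4 arrays, as log2 of the signal over the 75th percentile of the array, with a separate vertical scale per gene. Circles are the probe that stands for the gene, squares the other probes, and open symbols are not detected; Csf2 and Csf3 are open without LPS and filled with LPS in both genotypes, and the filled Csf1 probes lie lower in deficient cells.

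Csf3, the gene of G-CSF, had the largest LPS difference of the members. Its single spot (chr11:98564614-98564673 on mm9) had intensities of 4.40, 269, 6.23 and 178 in the order of the groups. It was not above background on either array without LPS and was above it on both arrays with LPS. Against the lowest detected level of the untreated array, Csf3 was therefore at least 10.9-fold higher with LPS in wild type and at least 11.4-fold higher in deficient cells. The measured levels went from -7.69 to -2.30 and from -7.66 to -2.74, and 0.12% and 0.29% of the genes compared had a measured difference at least as large. The untreated signals of 4.40 and 6.23 had signal errors of 4.40 and 4.63, so these shares rest on values at background. Only the bounds give a usable size, and they are relative to the lowest detected level, which is not a detection limit. With LPS, the signal was 1.35-fold lower in the deficient cells, a log2 difference of -0.44, which is 1 spot against 1 spot.

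Csf2, the gene of GM-CSF, was read by 10 spots on each array. Without LPS, 1 of 10 spots in wild type and 2 of 10 in deficient cells stood well above background, against 10 of 10 on each array with LPS. The median spot intensity was 14.1, 68.9, 11.5 and 58.9 in the order of the groups, over 10 spots each but 9 for untreated deficient cells, where an outlier spot was left out. The spots with LPS did not overlap those without it in either genotype, even with that outlier spot, which is one of the 2 counted above background there. These spots repeat 1 sample per group, and how many other 10-spot probes lay apart in this way was not counted. Against the lowest detected level of the untreated array, Csf2 was 2.87-fold higher with LPS in wild type and 3.74-fold higher in deficient cells. The measured levels were -6.16 and -4.23, and -6.62 and -4.34. Undetected Csf2 spots reached -5.74 and -6.14 on the untreated arrays, above those lowest levels of -5.75 and -6.25, so the folds are not strict limits. With LPS the genotypes differed by -0.11, less than the SD of 0.18 for a difference of single spots. These are means over 10 spots, whose error is smaller and was not computed. The call for Csf2 depended on the background correction: with normexp, which adds an offset of 50 to signals of this size, its LPS differences were 0.25 and 0.67, under 2-fold, while those of Csf3 were 1.43 and 1.81.

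Both factors can also come from other cells, and in a bulk sample more cells of a type cannot be told apart from more RNA per cell. The summed level of the neutrophil markers, in units of the 75th percentile, was also higher with LPS, at 5.84 and 20.6 in wild type and 5.09 and 23.1 in deficient cells. Most of that rise was S100a8, which made up 2.84, 15.7, 2.34 and 18.1 of the sums in the order of the groups, and Camp and Ly6g were higher with LPS too. Of the 7 detected markers 3 were lower with LPS in wild type (Elane, Mpo and Cxcr2) and 4 in deficient cells (the same and S100a9), and Ngp was never detected. The summed level of the T cell list was 4.81, 4.75, 4.49 and 4.63 in the same order, and that of the mast cell list, where Fcer1a was never detected, 0.81, 0.85, 0.77 and 0.86. The endothelial list summed to 8.59, 6.20, 7.56 and 6.01, and the sums of the mesothelial and fibroblast list are given with Csf1 below. The part of any of these cells in the Csf2 and Csf3 signal was not tested.

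**Figure D2:**
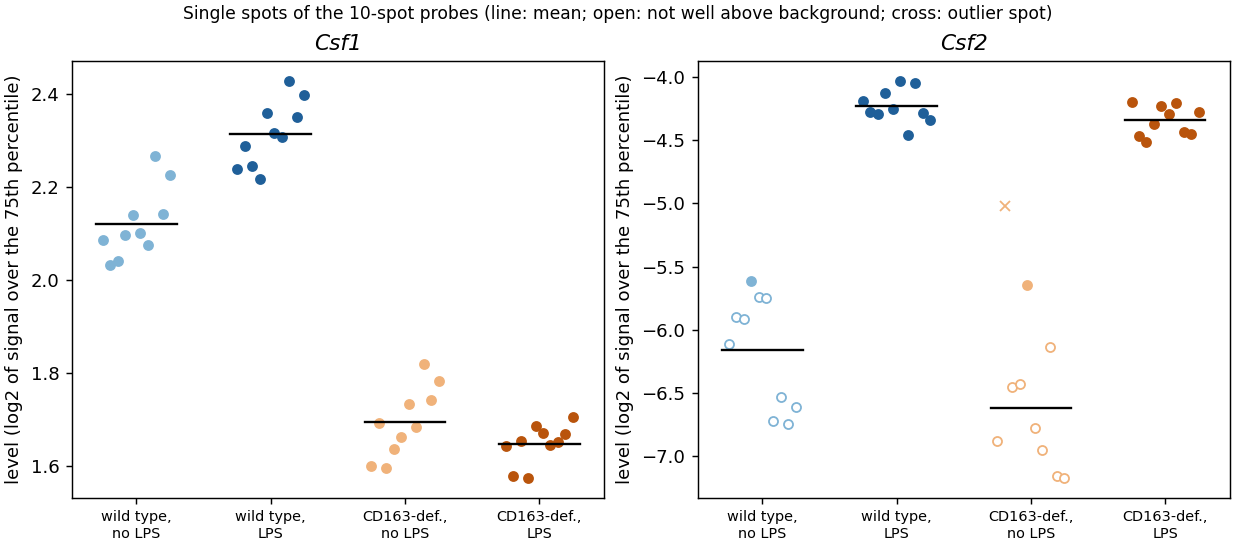
Level of every single spot of the Csf1 and Csf2 probes that were printed 10 times on each array, with the mean as a line, open circles for spots not well above background and a cross for the outlier spot left out of the mean. The Csf1 spots of the CD163-deficient arrays lie between 1.58 and 1.82, below all wild-type spots at 2.03 to 2.43; the Csf2 spots with LPS lie above those without it.

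Csf1, the gene of M-CSF, differed between the genotypes more than between the LPS states. Its 10-spot probe (chr3:107544333-107544392 on mm9) read 2.12 ± 0.08 in untreated and 2.31 ± 0.07 in LPS-treated wild type (SD over the 10 spots of 1 array). In deficient cells it read 1.70 ± 0.07 untreated and 1.65 ± 0.04 with LPS. After scaling, the spots of the genotypes did not overlap in either LPS state, but they repeat 1 sample per group. How many other 10-spot probes lay apart was not counted. Before scaling, the untreated spots did overlap, at intensities of 3720 to 4374 in wild type and 3800 to 4442 in deficient cells. The 75th percentiles of these arrays were 910 and 1257.5. With scaling, Csf1 was 1.34-fold lower without LPS and 1.59-fold lower with LPS in the deficient cells. Both are under 2-fold, and 21.5% and 7.86% of all genes compared differed at least as much.

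A pair of single-spot probes for another Csf1 transcript, which overlap each other in position, gave the same direction. One read -0.16, 0.03, -1.03 and -0.74 in the order of the groups. The other read -0.20, -0.03, -1.01 and -0.70, so on both the wild-type arrays were above the deficient ones. The genotype differences of these probes were -0.87 and -0.81 without LPS and -0.77 and -0.67 with LPS. A further probe, for another Csf1 transcript model, was not detected on any array. Over the 8 settings tried, the main one included, the genotype difference of Csf1 kept its sign, at -0.58 to -0.39 without LPS and -0.80 to -0.65 with LPS. Some settings could not differ, since the detection filters leave Csf1 unchanged and the value table follows quantile normalization. The values of -0.58 and -0.80 came from the mean over probes, which includes the undetected one.

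Macrophages are not the only source of M-CSF, which fibroblasts and mesothelial cells also make. The summed level of the 10 mesothelial and fibroblast markers was 65.2, 79.9, 58.6 and 51.5 in the order of the groups. Its rank order is that of the main Csf1 probe, whose step between the deficient arrays lay within its SD for a difference of single spots. The other detected Csf1 probes were higher in LPS-treated than in untreated deficient cells. Most of the sum came from Col1a2, Col1a1 and Dcn, at 29.5, 26.6 and 5.87 in untreated wild type. The single markers did not follow one pattern, and 8 of 10 were lower with LPS in wild type, all but the collagen chain Col1a2 and the matrix gene Dcn. Between genotypes 6 of 10 were lower in deficient cells without LPS and 7 of 10 with LPS. The collagen chain Col1a1 had levels of 4.73, 4.54, 4.07 and 3.84 and Col1a2 had 4.88, 5.39, 4.99 and 4.76, while Msln, a mesothelial marker, had -3.41, -4.98, -2.86 and -4.67. The part of these cells in the Csf1 difference was not tested. LPS moved the main Csf1 probe by 0.19 in wild type, where its SD for a difference of single spots was 0.10. In deficient cells LPS moved it by -0.05, where that SD was 0.09. The smaller error of the 10-spot means was not computed. The second pair of probes gave LPS differences of 0.20 and 0.17 in wild type and 0.29 and 0.31 in deficient cells, so the sign of the LPS difference in deficient cells rested on the probe.

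The receptors were detected by every probe on every array, and none of them moved by 2-fold in any comparison. Csf1r, the M-CSF receptor on chromosome 18, read 7.62, 7.37, 7.43 and 7.60 in the order of the groups on its brightest probe. Its other probes read 3.73, 3.65, 3.87 and 4.09, and 2.13, 2.23, 2.62 and 2.58. With LPS all 3 probes were higher in deficient cells, by 0.23, 0.43 and 0.35. Without LPS they disagreed in sign, at -0.19, 0.14 and 0.49, so no direction is given there. The LPS difference of the brightest probe was -0.25 in wild type and 0.17 in deficient cells, and the other probes had -0.08 and 0.10 in wild type and 0.21 and -0.04 in deficient cells. With quantile normalization the LPS differences of the brightest probe were -0.0045 and 0.04.

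Csf2ra, the binding chain of the GM-CSF receptor, had nearly equal levels on the 4 arrays after scaling. Before scaling its intensities were 83204, 126651, 122989 and 111106 in the order of the groups. Its single spot read 6.52, 6.58, 6.61 and 6.55 in the order of the groups, and no neighbouring levels in this order differed beyond the typical spot spread of 0.14. With quantile normalization its LPS differences were 0.25 in wild type and -0.22 in deficient cells, and its genotype difference without LPS was 0.33. The common beta chain Csf2rb read 5.70, 5.96, 5.52 and 5.82 on its brighter probe and 1.70, 2.25, 1.83 and 1.99 on the other. It was higher with LPS on both probes in both genotypes, by 0.26 and 0.54 in wild type and by 0.30 and 0.17 in deficient cells.

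Csf2rb2, the beta chain of the IL-3 receptor alone, was highest in wild type with LPS. Its brighter probe read 5.13, 5.64, 5.28 and 5.40 in the same order, and its other probe 2.85, 3.69, 3.29 and 3.33. The LPS differences were 0.51 and 0.83 in wild type, beyond the spot spread, and 0.12 and 0.04 in deficient cells, within it. The brighter probes of the paralogues are the pair whose sequences align, and the second Csf2rb2 probe, which has no such overlap, also had the larger LPS difference in wild type.

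Csf3r, the G-CSF receptor, read 5.84, 5.56, 5.68 and 5.49 on its single spot. It was lower with LPS in both genotypes, by a log2 difference of -0.28 in wild type and of -0.18 in deficient cells, both beyond the spot spread of 0.14. With quantile normalization the wild-type difference was -0.14, no longer beyond that spread, and that in deficient cells was -0.35. The 10 probes that share bases with it, as printed above, were detected in 9, 10, 10 and 9 cases in the order of the groups and had levels between -6.55 and 8.32. Of these probes 7 of 10 were lower with LPS in each genotype, with a median difference of -0.16 in wild type and -0.28 in deficient cells. How much of the Csf3r signal came from such shared sequence was not tested.

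**Figure D3:**
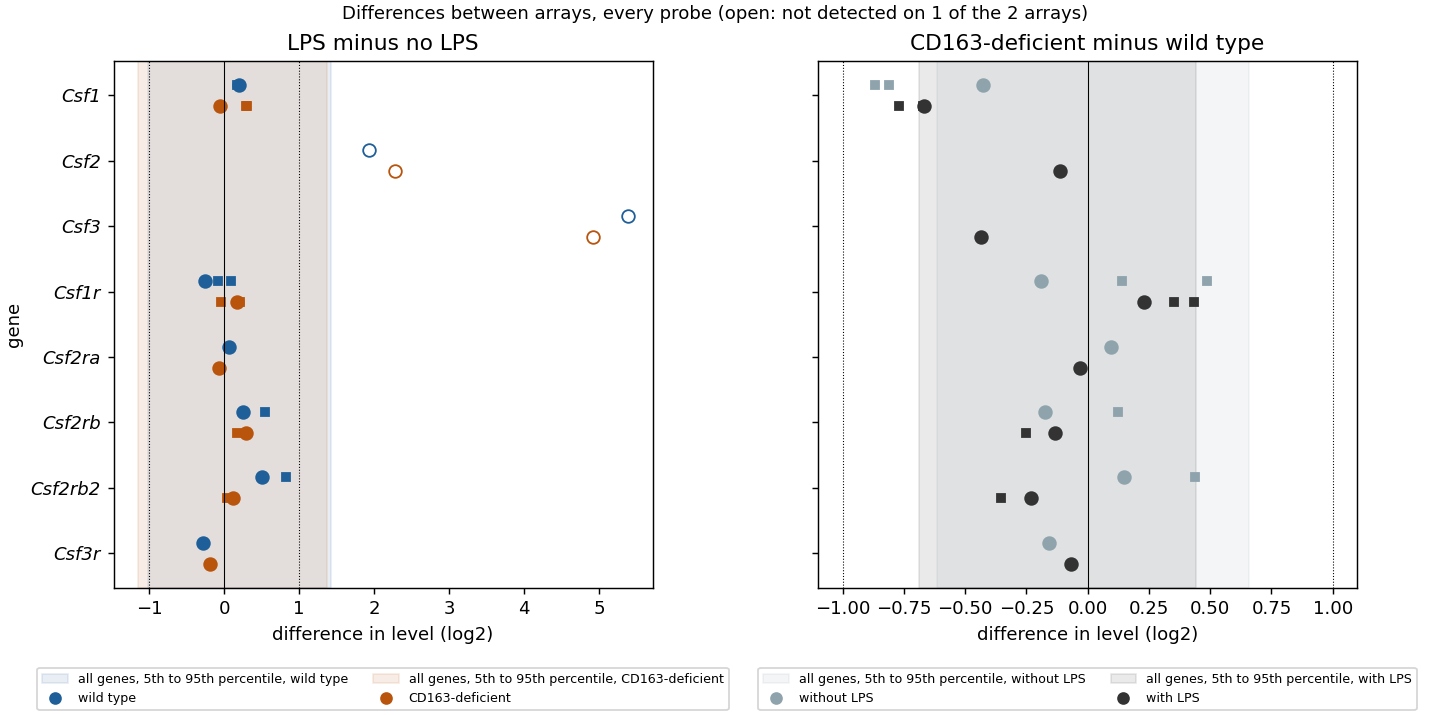
Differences in level between arrays (log2) for the probes of the 8 genes that at least 1 of the arrays compared detected, LPS minus no LPS on the left and CD163-deficient minus wild type on the right, with circles for the probe that stands for the gene, squares for other probes and open symbols where 1 of the arrays was below background. Shading spans the 5th to 95th percentile of all genes and dotted lines mark 2-fold; among the probes drawn only Csf2 and Csf3 with LPS lie past 2-fold.

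Set against all genes, the genotype comparisons held no member past 2-fold. Without LPS, 6 members could be compared, since Csf2 and Csf3 were below background on both arrays, and 0 were at least 2-fold higher, beside 1.3% of 25924 genes, or lower, beside 1.15%. With LPS all 8 could be compared and 0 were at least 2-fold higher, beside 1.24% of 26672 genes, or lower, beside 1.09%. Of the 8 members 7 had lower values in deficient cells with LPS and 1, Csf1r, a higher one, with a median of -0.12 against 0.00 for all genes. Of all genes compared there, 50.9% were higher in deficient cells. The differences of Csf2, Csf2ra, Csf2rb and Csf3r were -0.11, -0.03, -0.14 and -0.07, within the spread of single spots. With normexp correction Csf2 and Csf2ra turned to 0.05 each. Of the 6 compared without LPS, 4 were lower and 2 higher, with a median of -0.17 against -0.06, while 42.1% of all genes were higher. With quantile normalization Csf1r, Csf2rb and Csf3r turned to 0.07, 0.04 and 0.06, which leaves Csf1 as the member that stayed lower.

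The LPS responses of the genotypes could be set against each other for the 6 members detected on all 4 arrays. The response in CD163-deficient minus wild-type cells was -0.38 for Csf2rb2, a size reached by 30.3% of the 23911 genes compared. Its other probe gave -0.79, a size reached by 6.80%. The response difference was -0.24 for Csf1, -0.13 for Csf2ra, 0.04 for Csf2rb, 0.09 for Csf3r and 0.42 for Csf1r. Sizes like these were reached by 25.9% (Csf1r) to 91.4% (Csf2rb) of the genes. The second probe of Csf2rb gave -0.37 and the other Csf1r probes 0.29 and -0.13, so these genes had probes of both signs, as did Csf1, whose other probes gave 0.10 and 0.14. The median of the 6 was -0.04, with 3 above and 3 below 0, and that of all genes was 0.08, with 14303 above and 9608 below 0. With quantile normalization Csf2rb and Csf3r turned to -0.25 and -0.21, Csf1r came to 0.05, Csf2ra to -0.47 and Csf2rb2 to -0.65.

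The genes that carry, limit or follow the signals of these receptors were taken from 6 lists, of which 71 of 72 entries were compared. With LPS 10 were at least 2-fold higher and 10 lower in wild type, beside 6.44% and 5.09% of all genes. In deficient cells 11 were higher and 11 lower, beside 7.24% and 5.5% of all genes, and the same shares apply to each list below. Among the carriers, 3 of 23 were at least 2-fold higher in wild type and 4 of 23 in deficient cells. Jak2, the kinase bound to the beta chain, had LPS differences of 2.63 in wild type and 3.00 in deficient cells. Among the brakes, 4 and 2 of 12 were at least 2-fold higher. Socs3, which limits G-CSF receptor signalling, had LPS differences of 4.52 and 5.24, and Socs1 had 4.42 and 4.71. Cish, a STAT5 target that limits cytokine signalling, had 1.39 and 0.88.

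Of the 9 genes compared from the list of genes known to follow these signals, 5 were at least 2-fold lower and 2 at least 2-fold higher with LPS in each genotype. Ccl17, a chemokine gene that GM-CSF induces, had LPS differences of 3.57 in wild type and 2.03 in deficient cells. Pparg, a nuclear receptor that GM-CSF sustains in alveolar macrophages, had -2.61 and -3.03. Ccnd1, the cyclin D1 gene that M-CSF induces, had -2.05 and -1.88, and Plau, encoding urokinase, -1.34 and -1.46. Among the 14 myeloid transcription factors 4 were at least 2-fold lower in each genotype, and 1 in wild type (Ets2) and 2 in deficient cells (Ets2 and Cebpb) at least 2-fold higher. Of those lower, Egr2 was at -2.07 and -2.65, and Cebpa, a driver of Csf3r and other myeloid genes, at -1.53 and -1.99.

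Other ligands and receptor chains of the same families moved by less than 2-fold in all 9 cases. Il34, the second ligand of the M-CSF receptor, had levels of -2.44, -3.32, -2.93 and -3.62 in the order of the groups, and was lower with LPS in both genotypes and lower in deficient cells with and without LPS. Il3, which neighbours Csf2 on chromosome 11, read -4.73, -4.25, -4.52 and -4.61 with LPS differences of 0.48 in wild type and -0.10 in deficient cells. Adam10, one of the membrane proteases of the shedding list, had LPS differences of -1.33 and -0.34. Between genotypes 1 of 71 pathway genes was at least 2-fold higher without LPS, Ptprc, the phosphatase CD45, by 1.11, and 1 was at least 2-fold lower with LPS, Socs2, at -1.13, with -1.26 and -1.33 on its other probes detected on every array. These counts are close to the shares of all genes, 1.3% and 1.09%.

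The genes whose 4 levels, centred on their mean, lay closest to those of a member were found among 16711 candidates. Nearest to Csf1 was Fzd2, a Wnt receptor, at a root mean square distance of 0.01, with levels of -1.60, -1.37, -2.01 and -2.05, followed by Vegfc, a growth factor of lymphatic vessels, and Lnx1. Nearest to Csf2rb2 was Micall1 and nearest to Csf1r Mycbp. Nearest to Csf2ra, Csf2rb and Csf3r were Ywhaq, Zcchc10 and Hccs. With 4 arrays and so many candidates, near matches are a description only.

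RefSeq promoter windows on GRCm38.p6, from 250 bases before to 50 after the gene start, matched 5 of the 8 members by symbol, namely Csf1, Csf2, Csf2ra, Csf2rb2 and Csf3r. They were searched on both strands for the kappaB consensus, the AP-1 motif TGANTCA, the PU.1 motif GAGGAAG, the TATA box TATAAA and the C/EBP motif TTNCNNAA. PU.1 is a master factor of myeloid cells, and LPS switches on NF-kappaB and AP-1. The PU.1 motif was in the windows of 3 of the 5, all of them receptors, and in 13.6% of 32851 windows of the same length. In Csf2ra it occurred at 2 places that overlap by 1 base. In Csf2rb2 it lay on the opposite strand, so that the strand shown reads CTTCCTC, once before and once after the start. The windows are shown over 30 bases around the motif, in capitals.
Csf2ra, chr19:61228412-61228441, minus strand: cctgcagatGAGGAAGAGGAAGcgggagac
Csf2rb2, chr15:78305872-78305901, minus strand: cctctgtgtctgCTTCCTCcagagaagtca
Csf3r, chr4:126024561-126024590, plus strand: cctccttcctgaGAGGAAGgggctgtctat
The kappaB consensus was in 1 of the 5 windows, that of Csf1, on the minus strand of the window, and in 4.51% of all windows. The C/EBP motif was in 3 of the 5, among them Csf2, and in 40.7% of all. The AP-1 motif and the TATA box were in 0 of the 5, against 7.81% and 13.6% of all windows. The 250 bases before the RefSeq start of the 2 factors with a window are shown because Csf1 had the largest genotype differences of the members and Csf2 was at least 2-fold higher with LPS, with capitals for any of the 5 motifs.
Csf1, chr3:107760470-107760719, minus strand: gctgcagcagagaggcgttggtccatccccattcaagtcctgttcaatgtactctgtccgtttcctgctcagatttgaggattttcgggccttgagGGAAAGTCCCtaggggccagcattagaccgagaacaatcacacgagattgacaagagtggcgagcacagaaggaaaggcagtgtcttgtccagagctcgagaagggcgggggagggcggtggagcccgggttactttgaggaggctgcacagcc
Csf2, chr11:54249900-54250149, minus strand: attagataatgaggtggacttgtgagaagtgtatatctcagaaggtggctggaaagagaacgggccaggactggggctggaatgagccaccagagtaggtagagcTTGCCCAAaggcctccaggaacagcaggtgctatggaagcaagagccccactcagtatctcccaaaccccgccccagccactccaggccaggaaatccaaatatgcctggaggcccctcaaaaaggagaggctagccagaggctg
A match of letters does not show a bound site, and letters outside these windows were not searched.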

How the data were processed

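Total RNA of 4 samples was measured on 1-colour Cy3 Agilent arrays of 60-base probes. The deposited intensity of each spot is the processed signal of Agilent Feature Extraction, with background removed inside the array; its version is 10.7.1.1 per the file headers and 9.5.1.1 per the submitters' processing notes. A value table was deposited too, with column medians of 175 and intensity on a linear scale that follows quantile-normalized signals.

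Here log2 signals were averaged over the spots of a probe, without outlier spots, and the 75th percentile of the array was subtracted. Detection of a probe needed 50% or more of its spots to stand well above background. The probe with the highest mean level stood for a gene, and every probe of the members was reported. A gene was compared where 1 of the arrays detected it. Where only 1 did, the 2-fold call used a bound, replacing the undetected level by the lowest detected level of that array unless its own was higher. That lowest level is not a detection limit, since undetected spots can lie above it. With 1 array per group no test was run. The steps were tested on simulated data.

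The members, lists and alternatives were chosen with earlier results of these data known. Pathway genes were named by the size of their LPS difference (up to 4 a list) and of a genotype difference of the same sign with and without LPS (up to 3 a list). Symbols came from RefSeq for 31214 probes, and 8215 kept the name in the file. Alternatives were the value table, normexp (limma 3.58.1, R 4.3.3), the median of detected probes for scaling, quantile normalization, a mean over probes, and other detection filters. Python 3.11.15 with pandas 2.3.3 was used.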

Additional observations from a re-analysis of the deposited data

Results flagged for a closer look

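For 3 members the brightest probe moved with LPS in opposite directions in the genotypes, and with 1 array per group this difference was not tested. The LPS response in CD163-deficient minus wild-type cells was 0.42 for Csf1r, -0.24 for Csf1 and -0.13 for Csf2ra (log2). With quantile normalization and with the value table it was 0.05 for Csf1r, and 1 of the other Csf1r probes gave -0.13. For Csf1 another pair of probes was higher with LPS in both genotypes. For Csf2ra both LPS differences lay within the typical spread of a difference of single spots, 0.14, except with quantile normalization, where they were 0.25 (wild type) and -0.22 (deficient).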

How the results depend on the processing

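No paired analysis was possible because each group holds 1 array. With normexp background correction 1 member in place of 2 was at least 2-fold higher with LPS in each genotype (Csf3), and 0 were when detection on both arrays was required, since that leaves out Csf2 and Csf3. The median LPS difference of the pathway genes in CD163-deficient cells was -0.06, and -0.21 with quantile normalization and with the value table. The median difference in LPS response of the members was -0.04, and -0.28 under both of these; the cause was not tested. The other 73 recomputed counts and medians stayed within 1.5 times the main count or within the spread of a spot difference. Many of these counts were 0 in every setting. Beside them, 52 recomputed differences of single members moved by at least that spread. Over all settings the LPS difference kept its sign for 8 of 8 members in wild type and 5 of 8 in CD163-deficient cells, and the genotype difference for 3 of 6 without and 6 of 8 with LPS. In wild type that of Csf1r shrank to -0.0045 with quantile normalization and with the value table, so its sign there means little. The detection filters cannot change the difference of a gene, and the value table nearly repeats quantile normalization, so the settings are not independent. Normexp moved the median LPS difference of all genes in wild type from 0.01 to -0.18 and their genotype difference without LPS from -0.06 to -0.17. Low signal limits Csf2 and Csf3 without LPS, where only bounds against the lowest detected level can be given.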
